A study of Ovis aries with 16 samples.

Results

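INHBA (ENSOARG00000017475 in the deposited gene lists) encodes the beta A subunit shared by activin A and inhibin A. It was followed as 1 gene of the 25197 genes listed for each of 16 testis libraries. Its values were found by this identifier, and the gene was chosen with earlier results of these data known. The libraries came from adult Merino male sheep, with 1 RNA-seq library of testis tissue per sheep. Per the methods, pieces of the upper, middle and lower right testis were pooled for RNA. The high diet group (8 sheep) was given feed for a rise of 10% in body mass within 65 days, and the low diet group (8 sheep) for a fall of 10% within the same time. The labels name no treatment beside the diets. A maintenance diet group was not analysed here. The question was whether testicular INHBA differed between well-fed and underfed sheep, and whether it moved with the size and the germ cell traits of the same testes.

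Activins and inhibins are secreted dimers of the TGF-beta family. A pair of beta subunits makes an activin, and a beta subunit joined to the alpha subunit, the product of INHA, makes an inhibin. Activin A binds a type II receptor such as the product of ACVR2B, which then recruits the type I receptor encoded by ACVR1B and sends a signal through SMAD proteins. Inhibin, held on type II receptors by betaglycan, the product of TGFBR3, blocks that signal. In the testis both proteins act locally on Sertoli cells, germ cells and Leydig cells, and inhibin secreted by Sertoli cells lowers FSH release from the pituitary. Because beta subunits serve both dimers, the INHBA transcript alone does not say which dimer was made.

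The deposited values were CPM, the reads on a gene divided by the reads on all listed genes and scaled by a constant. Every CPM value was a whole multiple of 1 read, so the reads could be recovered. The libraries held 9552149 to 18230076 reads in well-fed sheep and 7646547 to 14690953 in underfed sheep. The high diet sheep 5 and 8 stood apart. TMM factors, which correct for differences in library composition, were 0.859 and 0.739 in these libraries and up to 1.13 in the others. They also lay lowest on the first principal component of the genes tested, signed so that INHBA loads positively, and this component held 59.6% of the variance. Results that rest on both libraries are given with and without them.

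INHBA was higher in underfed than in well-fed sheep. In the high diet group, sheep 1 to 8 had INHBA at 3.87, 3.36, 6.60, 9.33, 2.89, 4.40, 15.4 and 1.32 CPM. In the low diet group, sheep 1 to 8 had 6.06, 14.8, 19.1, 20.4, 9.10, 22.7, 12.1 and 15.9 CPM. The diets overlapped: 4 of 8 underfed sheep lay above every well-fed sheep, and 5 of 8 well-fed sheep lay below every underfed sheep. All 8 underfed sheep lay above the median of the high diet group. The overlap came from high diet sheep 3, 4 and 7 on one side and low diet sheep 1, 2, 5 and 7 on the other.

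**Figure D1:**
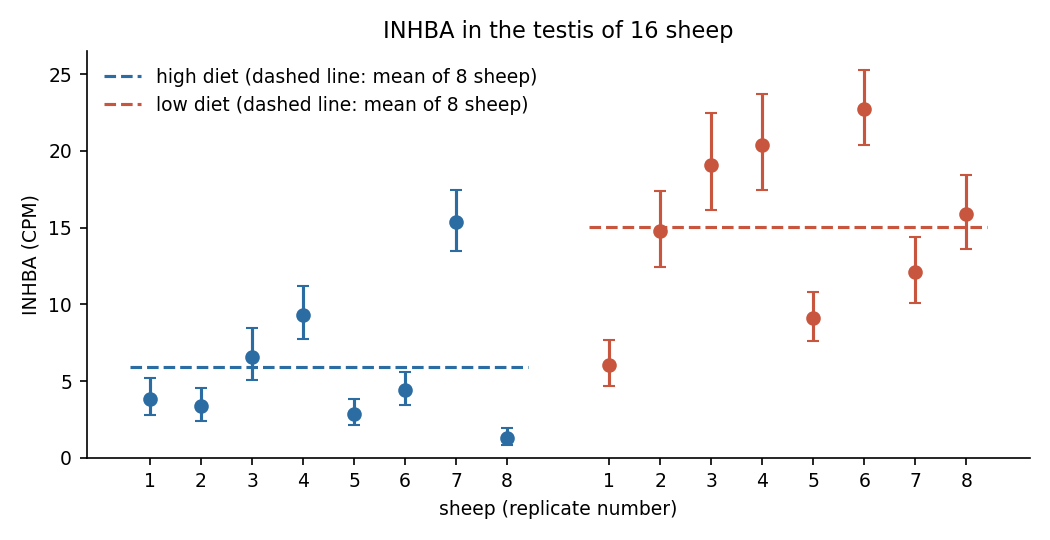
INHBA in CPM (vertical axis) in each of 16 sheep (horizontal axis, replicate number within each diet). Points are single libraries, bars are exact 95% Poisson intervals of the read counts, and dashed lines are diet means. All 8 underfed sheep lie above 6 CPM, whereas only high diet sheep 3, 4 and 7 do so among the well-fed.

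Mean INHBA was 15.02 ± 5.73 CPM with the low diet and 5.89 ± 4.56 CPM with the high diet (SD, n = 8 each), a ratio of 2.55. The medians were 15.3 and 4.13 CPM, a ratio of 3.71. After scaling by TMM factors, with a pseudocount of 1 CPM, the log2 fold change (low over high) was 1.23 with an SE of 0.32. The adjusted p was 0.036 by limma with Benjamini-Hochberg adjustment over 11148 genes. A pseudocount makes the fold change of a low gene smaller than the ratio of its CPM. The difference of this single gene had an exact permutation p of 0.0050 (two-sided, n = 8 each), with an interval of 0.47 to 1.97 at 95%. The study had already named INHBA as differentially expressed in these same sheep, so this p is no independent support.

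INHBA was called changed by the rule used for every gene, an adjusted p under 0.1 with a ratio of mean CPM above 1.5. By this rule 10.8% of the tested genes were higher in underfed sheep and 5.42% were lower, so a gene called higher was common in this comparison. INHBA ranked at 402 of 11148 by p, and 201 genes had a larger log2 fold change. Genes were tested if they lay above 5 CPM in 8 or more libraries. INHBA did so in 8 underfed and 3 well-fed sheep, so the low diet group alone was enough to meet this filter. With no filter beyond 1 read, INHBA was still called, at an adjusted p of 0.059 by limma. The call held with each of the 16 sheep left out in turn, with log2 fold changes of 1.07 to 1.44 and adjusted p between 0.010 and 0.084. Without high diet sheep 5 and 8 together, the log2 fold change was 0.96 (SE 0.32) with an adjusted p of 0.15 by limma, and INHBA was not called. In that fit 261 genes were called in all. The exact permutation p of INHBA alone was 0.019 (two-sided), with the same limit of a gene already selected on diet. Without TMM factors, 1563 genes were higher and 455 lower in underfed sheep, against 1204 and 604 with them. All tested genes then had a median change of 0.17 on the log2 scale, and INHBA one of 1.36 (adjusted p = 0.028 by limma).

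Spread among sheep was wide on both diets and much larger than counting error. The reads behind each value ran from 24 to 240 in well-fed and from 69 to 334 in underfed sheep. The coefficient of variation of INHBA CPM was 77.3% for well-fed and 38.2% for underfed sheep. Counting error made up 2.14% and 4.45% of those variances. The highest sheep exceeded the lowest 11.7-fold among well-fed and 3.75-fold among underfed sheep. When the 16 sheep were ordered by INHBA, 14 of 15 pairs of neighbours had overlapping 95% Poisson intervals, which cover counting error only. Overlap of intervals is no test of a difference, and whether neighbours in that order differ was not tested. High diet sheep 8, the lowest at 1.32 CPM, also had the lowest TMM factor, and scaling raised its value to 1.78. High diet sheep 7, the highest well-fed sheep at 15.4 CPM, had a TMM factor of 1.00.

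Across all 16 sheep, INHBA was lower where the library was larger, with r = -0.51 (permutation p = 0.044) and rho = -0.48 (p = 0.062, permutation). Without high diet sheep 8 and 5, the largest libraries, r was -0.20. Within diets r was -0.23 (low) and -0.29 (high). The part of library size in the diet difference was not tested.

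The other gene of the same dimers, INHA, was also higher in underfed sheep. Of a list of 46 genes of activin and inhibin signalling and related ligands, 7 had an identifier that could be tied to a symbol. The symbols came from lists that hold mostly genes the study had selected as changed by diet in these same sheep, and 76.7% of all tested genes with a symbol were called. The 5 genes called higher and the 1 called lower among these 7 are therefore no evidence of their own, and the 39 other genes of the list were not analysed here. The median log2 fold change over the 7 genes was 1.05, against 0.01 over all genes tested, and this gap is subject to the same selection.

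Among the ligand subunits, INHA encodes the alpha subunit that turns a beta subunit into an inhibin. INHA had a lowest value of 29.2, a median of 39.2 and a highest value of 107.2 CPM in underfed sheep. In well-fed sheep these were 3.61, 19.7 and 35.4 CPM. Of the underfed sheep, 6 of 8 lay above every well-fed sheep. INHA had a log2 fold change of 1.27 (SE 0.35) and an adjusted p of 0.039 by limma.

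INHBA was next set against INHA inside each library, on the same scaled log2 values. The log2 difference INHBA minus INHA was -1.76 ± 0.44 in underfed and -1.71 ± 0.92 in well-fed sheep (SD, n = 8 each). These differences are not per transcript length, so their sign does not rank the subunits, and they serve only to compare the diets. The diets differed by -0.04, with an interval of -0.82 to 0.73 and an exact permutation p of 0.90. No shift of the beta A to alpha ratio with diet was detectable, but shifts within this interval could not be told from none with these sheep. INHA had a symbol through the lists of mostly diet-changed genes, and was itself called higher. A difference near that of INHBA was therefore favoured in advance, and the p does not show an unshifted ratio. The ratio was lowest in high diet sheep 2 (-2.78) and highest in high diet sheep 5 (-0.25), so well-fed sheep spanned the widest range. With high diet sheep 5 and 8 left out, the diets differed by 0.04 (exact permutation p = 0.91), and with a pseudocount of 0.1 CPM by 0.07, so the sign of this small difference was not stable. In high diet sheep 5, INHA was at its lowest, 3.61 CPM, while INHBA was at 2.89 CPM.

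**Figure D2:**
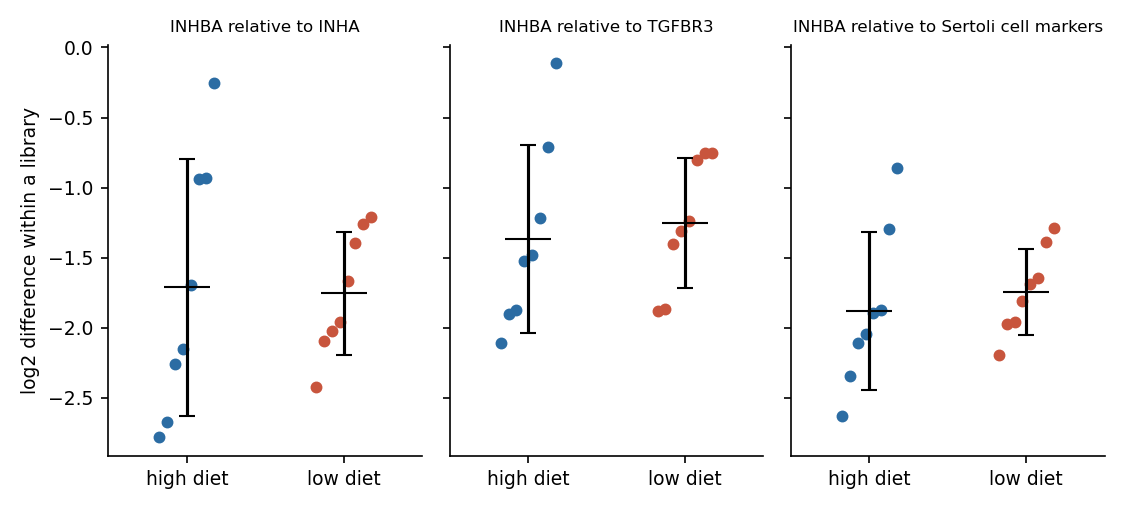
Log2 difference between INHBA and INHA, TGFBR3 or the mean of 4 Sertoli cell markers (FSHR, GATA4, WT1, CLDN11) within each library (vertical axis), by diet. Points are sheep, and black bars are the mean and SD of 8 sheep. The diets overlap over most of their range in each panel, and diet means differ by -0.04, 0.11 and 0.14.

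Of the receptors, TGFBR3, the inhibin co-receptor, had the smallest p of the list. Mean TGFBR3 reached 36.7 ± 12.8 CPM with the low diet against 14.2 ± 3.76 CPM with the high diet (SD, n = 8 each), and 7 of 8 underfed sheep lay above every well-fed sheep. Its log2 fold change was 1.11 (SE 0.20) with an adjusted p of 0.016 by limma. The log2 difference INHBA minus TGFBR3 was higher by 0.11 in underfed sheep, with an interval of -0.53 to 0.72 (exact permutation p = 0.68). That difference was -0.10 with high diet sheep 5 and 8 left out (exact permutation p = 0.74). TGFBR3 was matched through the same lists of mostly diet-changed genes, so a small difference was favoured in advance here too.

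ACVR1B, the type I receptor of activin, was called just inside the threshold at a log2 fold change of 1.05 (SE 0.42, adjusted p = 0.0999 by limma). ACVR2B, a type II receptor, averaged 11.2 ± 8.42 CPM with the low diet and 4.39 ± 3.12 CPM with the high diet (SD, n = 8 each). It was just outside the threshold, with a log2 fold change of 1.00 (SE 0.40, adjusted p = 0.102 by limma). Both receptor genes were low: the lowest ACVR1B value, 0.44 CPM in the high diet group, rested on 8 reads.

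PCSK5 encodes a proprotein convertase, one of the proteases able to cleave TGF-beta family precursors. It was higher in underfed sheep, with a log2 fold change of 0.95 (SE 0.26, adjusted p = 0.038 by limma). BMP3, a TGF-beta family ligand of another branch, was lower in underfed sheep, at 13.0 ± 3.09 against 19.7 ± 4.07 CPM (SD, n = 8 each). Its log2 fold change was -0.74 (SE 0.18, adjusted p = 0.030 by limma). Without high diet sheep 5 and 8, 2 of the 7 pathway genes were called by limma, TGFBR3 (adjusted p = 0.064) and BMP3 (adjusted p = 0.098), while INHA was at an adjusted p of 0.127 and PCSK5 at 0.155.

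**Figure D3:**
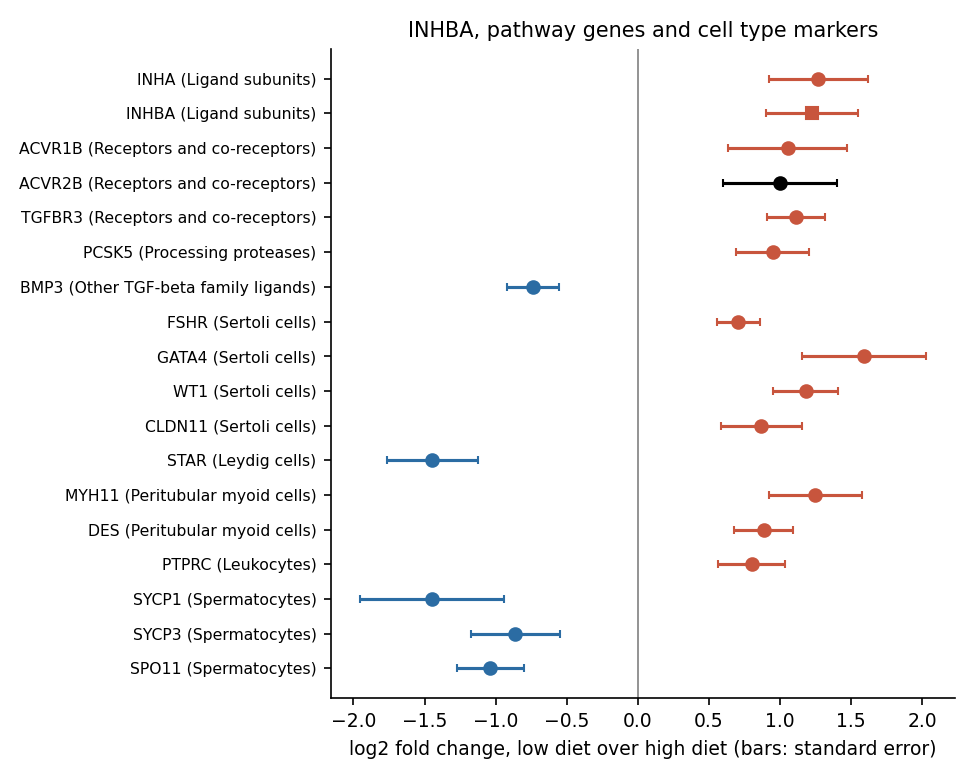
Log2 fold change, low diet over high diet (horizontal axis), with the standard error as bars, for INHBA (square), the other pathway genes with an identifier and cell type markers. Red and blue are genes called higher and lower in underfed sheep, and black (ACVR2B) was not called. INHBA (1.23) lies beside INHA (1.27), WT1 (1.18) and MYH11 (1.25).

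The libraries came from pooled pieces of testis tissue with all its cell types, so fewer cells of a type and less RNA per cell cannot be told apart. Markers of several cell types moved with diet together with INHBA. Sertoli cells, the somatic cells that line the tubules and nurse the germ cells, were represented by 5 of 11 markers: FSHR, the receptor of FSH, the transcription factors GATA4 and WT1, the tight junction gene CLDN11, and INHA. All 5 were called higher in underfed sheep, beside 10.8% of all tested genes, but the 76.7% called among genes with a symbol is the nearer comparison for matched markers. Their summed level was 198 to 532 CPM there, against 113 to 164 CPM with the high diet. CLDN11 was the largest part of this sum, with means of 147.9 and 62.8 CPM and up to 370 CPM in low diet sheep 7. FSHR (adjusted p = 0.053 by limma) and WT1 (0.073) were still called without high diet sheep 5 and 8, while INHA, GATA4 and CLDN11 were not. None of the markers was at 0 in any library.

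Of the peritubular myoid markers, which stand for the contractile cells around the tubules, 2 of 4 could be read. MYH11 had a log2 fold change of 1.25 and DES of 0.89, and both were called higher in underfed sheep. Their summed level was 119 to 515 CPM in underfed sheep against 46.6 to 255 CPM. It was mostly MYH11, with means of 292 and 119 CPM beside 17.6 and 8.08 CPM for DES. The leukocyte marker PTPRC (1 of 5) was higher too, at 0.80, with 19.3 to 59.4 CPM against 10.9 to 33.6 CPM. Meiotic genes of spermatocytes (3 of 4) were called lower, beside 5.42% of all tested genes and, in either direction, 76.7% of those with a symbol. They had log2 fold changes of -1.45 for SYCP1, -0.86 for SYCP3 and -1.04 for SPO11. Their summed level was 23.8 to 191 CPM with the low diet and 90.1 to 362 CPM with the high diet. The Leydig cell gene STAR (1 of 6), which carries cholesterol into mitochondria, was lower at -1.45, with 6.71 to 27.8 CPM against 16.02 to 73.0 CPM. STAR and SPO11 were still called without high diet sheep 5 and 8, whereas MYH11, DES, PTPRC, SYCP1 and SYCP3 were not. Markers of endothelium, spermatogonia and spermatids had no identifier that could be tied to a symbol. The symbols again came mostly from genes the study selected on diet, and the part of cell make-up in the INHBA difference was not tested.

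Set against the mean of FSHR, GATA4, WT1 and CLDN11 in the same library, INHBA was higher by 0.14 on the log2 scale in underfed sheep. The interval was -0.35 to 0.62 and the exact permutation p was 0.56 (two-sided, n = 8 each). The difference was -0.02 without high diet sheep 5 and 8 (exact permutation p = 0.915). These markers were matched through lists of mostly diet-changed genes, and all were called higher in underfed sheep. A small difference was therefore favoured in advance, and the ratio is a description and no test of cell make-up. Relative to these markers, INHBA was at -1.74 ± 0.31 in underfed and -1.88 ± 0.57 in well-fed sheep. High diet sheep 7 had the highest relative value (-0.86) and high diet sheep 8 the lowest (-2.63).

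The Sertoli cell markers did not move as one beside INHBA. Correlations with genes are given as descriptions over 16 sheep with no p, since most named genes were selected for their diet difference and all points share library scaling. INHBA followed GATA4 (r = 0.93) and WT1 (r = 0.93), and did so within the low diet (0.85 and 0.89) and within the high diet (0.89 and 0.89). FSHR and CLDN11 behaved otherwise. INHBA had r = 0.59 with FSHR over all sheep, 0.69 within the low diet and -0.38 within the high diet. With CLDN11 it had r = 0.30 over all sheep, 0.09 within the low diet and -0.76 within the high diet. When high diet sheep 5 and 8 were left out, r within the high diet was 0.28 with FSHR, so that sign rested on those libraries, and -0.79 with CLDN11. It was 0.84 with GATA4 and 0.82 with WT1. The difference between diets in these correlations was not tested.

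Genes of other somatic cell types differed in how they moved with INHBA across sheep. The myoid gene MYH11 had r = 0.92 with INHBA, 0.74 within the low diet and 0.92 within the high diet. The other myoid gene, DES, followed INHBA less closely, at r = 0.80, with 0.56 within the low diet and 0.62 within the high diet. Without high diet sheep 5 and 8, r within the high diet was 0.89 for MYH11 and 0.24 for DES. The Leydig cell gene STAR went the other way at r = -0.66, with -0.61 within the low diet and -0.10 within the high diet. The leukocyte gene PTPRC had r = 0.72, with 0.34 within the low diet and 0.66 within the high diet. In high diet sheep 7, which had the most INHBA of the well-fed sheep, PTPRC was also highest, at 33.6 CPM.

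Among the pathway genes, INHBA moved most closely with PCSK5 (r = 0.92), with 0.84 within the low diet and 0.88 within the high diet. The receptors ACVR2B (0.85), ACVR1B (0.81) and TGFBR3 (0.80) came next. INHA, the partner subunit, had r = 0.74 over all sheep, 0.74 within the low diet and 0.40 within the high diet. BMP3 went the other way at -0.76.

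**Figure D4:**
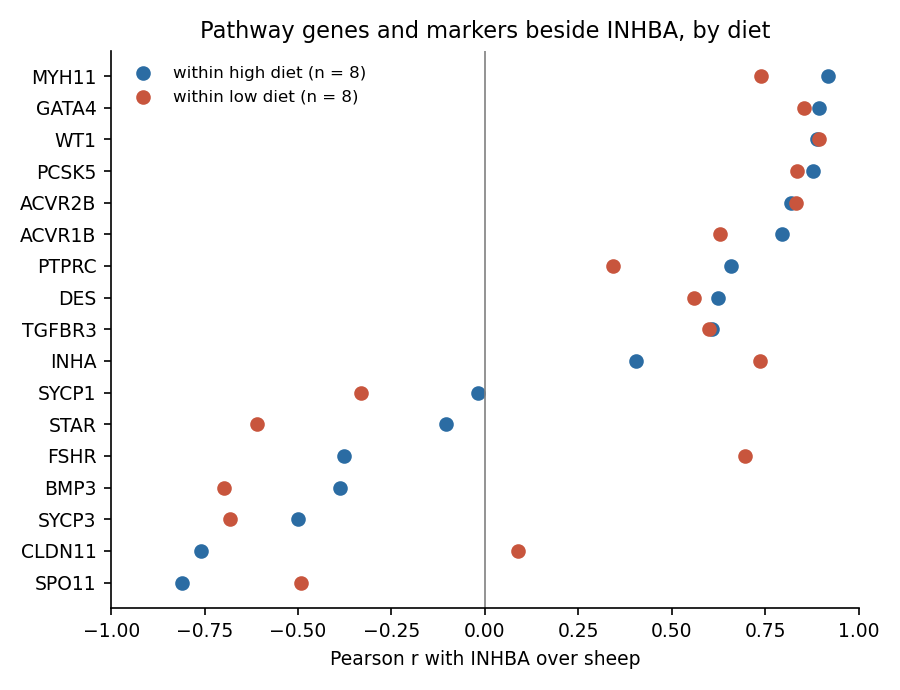
Pearson r between INHBA and each pathway gene or marker (horizontal axis) within the high diet (blue) and within the low diet (red), 8 sheep each, on the log2 scale. GATA4, WT1, PCSK5, ACVR2B and MYH11 lie between 0.74 and 0.92 on both diets, whereas FSHR and CLDN11 lie below 0 on the high diet only (for FSHR, r is 0.28 without high diet sheep 5 and 8).

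Close likeness to INHBA was common. Of 11147 other tested genes, 12.1% had r above 0.8 with INHBA over 16 sheep, 327 genes had r above 0.9 and 1090 had r below -0.8, while the median was 0.01. After each diet mean was removed, 9.12% still had r above 0.8. INHBA itself had an absolute r of 0.89 with the first principal component. The 8 genes with a symbol most like INHBA were ADAM11 (r = 0.97), PFKFB4 (0.97), MAGED1 (0.96), TMEM63A (0.96), SOGA2 (0.96), MOCS1 (0.96), GNB1 (0.96) and GALNT18 (0.96). Among them ADAM11 is a non-catalytic member of the ADAM family, PFKFB4 sets the level of a regulator of glycolysis, and GNB1 is a G protein beta subunit. With diet means removed the first 3 stayed in the same order, at 0.95, 0.94 and 0.93, followed by GALNT18, TMEM63A, CGN, SREBF1 and SOGA2. All 8 genes of either list were also the closest of the 11147 genes, with or without a symbol.

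The 6 testis traits recorded for the same sheep were then set beside INHBA. INHBA was higher in sheep with lighter testes, with r = -0.69 over 16 sheep (permutation p = 0.0034, adjusted p = 0.020 over 6 traits) and rho = -0.68 (permutation p = 0.0045, adjusted p = 0.012). Without low diet sheep 2 and 3, farthest from the median testis weight, r was -0.66. Within the high diet r was -0.80 (exact permutation p = 0.019, adjusted p = 0.11 over 12 relations) and rho -0.83, and r was -0.67 without sheep 5 and 8. Within the low diet r was -0.17 (exact permutation p = 0.69). With diet means removed r was -0.42 (permutation p = 0.088, adjusted p = 0.53), which did not pass the test. Without high diet sheep 8, which had the heaviest testes and the least INHBA, the pooled r was -0.63 with an adjusted permutation p of 0.061. Leaving out high diet sheep 5 and 8 gave a pooled r of -0.59 (adjusted permutation p = 0.10). Among the well-fed, the sheep with the lightest testes (sheep 7) had the most INHBA. Low diet sheep 8 stood off the trend, with testes of rank 14 of 16 by weight and INHBA at 15.9 CPM. When testis weight was entered as a covariate, the diet difference of INHBA was 0.71 (SE 0.43). By limma its unadjusted p was 0.12 and its adjusted p 0.85, and the other pathway genes had the same adjusted p. In that fit no gene was called by limma. An unadjusted p under 0.05 was found for 544 of 11148 genes, about the share that this threshold passes by chance. Testis weight was itself mostly higher in well-fed sheep, so diet and testis weight cannot be told apart in this fit.

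INHBA was also lower where the seminiferous epithelium, the germ cell layer of the tubules, had more volume. This relation had r = -0.66 (permutation p = 0.0065, adjusted p = 0.020) and rho = -0.68 (permutation p = 0.0048, adjusted p = 0.012). Without high diet sheep 2 and 8, farthest from the median, r was -0.49 (permutation p = 0.074), so it rests in part on those sheep. Leaving out high diet sheep 5 and 8 gave r = -0.53 (adjusted permutation p = 0.10). Within diets r was -0.01 (low) and -0.52 (high). After removal of diet means, r was -0.29 (permutation p = 0.29, adjusted p = 0.86), which did not pass the test. With tubule diameter, r was -0.55 (permutation p = 0.029, adjusted p = 0.044) and rho -0.54 (permutation p = 0.034, adjusted p = 0.041). Without low diet sheep 2 and 3, r was -0.46 (permutation p = 0.098). Within diets r was -0.21 (low) and 0.05 (high), and none of the within-diet values of either trait passed the test. Leaving out high diet sheep 5 and 8 gave r = -0.46 (adjusted permutation p = 0.15). After removal of diet means, r with tubule diameter was -0.06 (permutation p = 0.83, adjusted p = 0.94). The pooled values of both traits include the difference between diets.

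**Figure D5:**
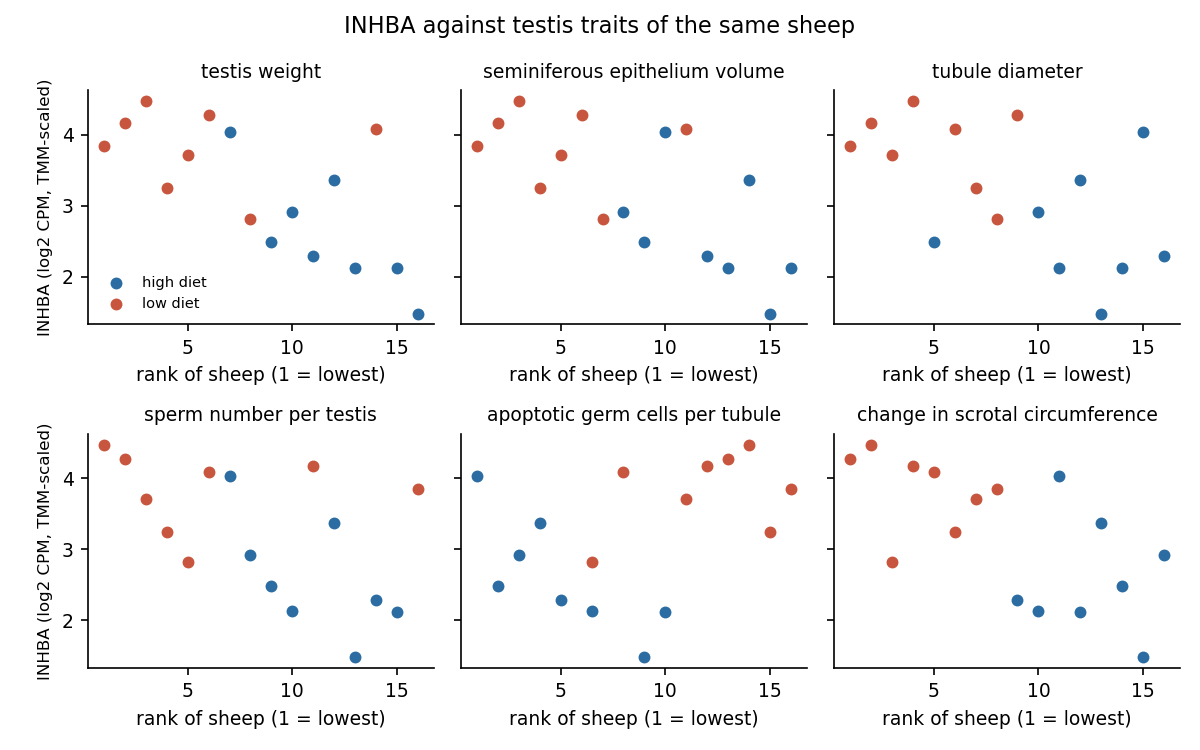
INHBA on the log2 scale (vertical axes) against the rank of each sheep on 6 testis traits (horizontal axes, 1 is the lowest), with well-fed sheep in blue and underfed sheep in red. Testis weight falls with INHBA among well-fed sheep (r = -0.80), apoptotic germ cells per tubule do so as well (r = -0.80), and the diets do not overlap in the change of scrotal circumference. Neither of these within-diet relations passed the test after adjustment over 12 relations.

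Sperm number per testis gave r = -0.40 (permutation p = 0.12, adjusted p = 0.14) and rho = -0.55 (permutation p = 0.029, adjusted p = 0.041). Low diet sheep 2 had the most sperm of all sheep but the lightest testes, at an INHBA of 14.8 CPM. Without this sheep alone, r was -0.67 (adjusted permutation p = 0.019), so the pooled r depends on it. Without low diet sheep 2 and 6, r was -0.61 (permutation p = 0.021). Within diets r was 0.07 (low) and -0.72 (high, exact permutation p = 0.044, adjusted p = 0.17). After removal of diet means, r was -0.17 (permutation p = 0.49, adjusted p = 0.94).

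For apoptotic germ cells per tubule, r was 0.37 over all sheep (permutation p = 0.15, adjusted p = 0.15), with rho = 0.38 (permutation p = 0.15). Without low diet sheep 2 and 5, r was 0.52 (permutation p = 0.060), and with diet means removed it was -0.04. The sign was negative within the high diet, but the relation did not pass the test after adjustment. There r was -0.80 (exact permutation p = 0.017, adjusted p = 0.11 over 12 relations), and -0.73 without high diet sheep 5 and 8. The value of rho there was -0.88 (exact permutation p = 0.0072, not adjusted over the 12 relations). Sheep 7, with the most INHBA of the well-fed, had the fewest apoptotic cells of all 16. Within the low diet r was 0.13 (exact permutation p = 0.77). The difference between diets was not tested. For the change in scrotal circumference the diets did not overlap, so no pooled relation is given. Within diets r was -0.17 (low) and 0.05 (high).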

How the data were processed

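Testis RNA of 16 sheep was sequenced after a TruSeq Stranded mRNA preparation. Per the labels and methods, the authors aligned reads to Oar_v3.1 with TopHat2 (2.0.10), used htseq-count with the Ensembl annotation, with a strand setting that is not given in the sources used here, and deposited CPM per gene without TMM scaling. In the RefSeq annotation of another sheep assembly no gene overlapped INHBA. Reads were recovered from the CPM of each library, and 100% of values were whole within 0.01 reads.

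CPM was divided by TMM factors (edgeR 4.0.16), and the log2 of the result plus 1 CPM was compared for genes past the filter of the methods (8 or more libraries above 5 CPM), with limma 3.58.1 (trend, R 4.3.3). Since the deposited values are CPM, limma replaced the count test of the methods, and edgeR's quasi-likelihood test on the recovered reads, which called 1673 genes, and DESeq2 1.42.0 served as alternatives. Single values were compared with exact permutation tests over 12870 assignments. Correlations used 100000 resamples, or all 40320 orders within a diet (scipy 1.17.1). The traits are those recorded by the study for the same sheep names. The limma fit was tested on simulated data.

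The genes named are INHBA, the listed pathway genes and markers that could be matched, and the 8 genes most like INHBA by each measure. The gene and the lists were chosen with earlier results of these data known. Symbols matched 1763 of 25197 identifiers, and 7 of 46 pathway genes and 12 of 42 marker genes. No sequence is shown, and genes without a match, INHBB among them, were not analysed here. Alternatives covered scaling, filter, pseudocount, test, pairing, a covariate, threshold and samples. The relations with TGFBR3, library size and pathway genes, and the values without high diet sheep 5 and 8, were added after the data were seen.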

Additional observations from a re-analysis of the deposited data

Results flagged for a closer look

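The values below were found by Dixon's ratio, the gap between an extreme sheep and its nearest neighbour divided by the range of its diet group. Chance puts about 1 in 20 groups past the limit. INHBA in CPM did not pass it on either diet. As recovered reads, not scaled for depth, INHBA passed it in both groups: low diet sheep 6 with 334 reads (ratio 0.60) and high diet sheep 7 with 240 reads (ratio 0.569). Of the markers set beside INHBA, CLDN11 passed on the low diet, where sheep 7 was highest (ratio 0.596). PTPRC passed on the high diet, where sheep 7 was highest (ratio 0.59), the same sheep that had the most INHBA among the well-fed. FSHR passed on the high diet, where sheep 1 was lowest (ratio 0.5261). No cause was tested for any of these.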

How the results depend on the processing

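Neighbouring sheep in the order by INHBA mostly had overlapping Poisson intervals. Beside leaving out single sheep, 80 values were recomputed under alternatives, of which 60 kept their direction and side of the threshold or stayed within the limit for counts. The sign turned in 5, none of which passed the test before or after: INHBA relative to INHA (-0.04) was 0.072 with a pseudocount of 0.1 CPM and 0.039 without high diet sheep 5 and 8, INHBA relative to TGFBR3 (0.11) was -0.099 and relative to Sertoli cell markers (0.14) was -0.025 without those sheep, and r with apoptotic germ cells (0.37) was -0.038 with diet means removed. Leaving out 1 sheep gave -0.20 to 0.16 for INHBA relative to INHA. INHBA was called under 11 of 13 alternatives and was not called with testis weight as a covariate (log2 fold change 0.71, adjusted p = 0.85 by limma) or without high diet sheep 5 and 8 (0.96, adjusted p = 0.15 by limma). The cause was not tested. Genes called, 1808 in the reported fit, were 1067 with the replicate block, 837 at an adjusted p under 0.05, 0 with the covariate and 261 without high diet sheep 5 and 8. Pathway genes called were 0 with the covariate and 2 without those sheep. Leaving out 1 sheep gave 674 to 2684 genes called and 4 to 7 pathway genes called. The count of genes moved by over 1.5 times without high diet sheep 1 (1018), 5 (836), 6 (930) or 8 (865), and without low diet sheep 4 (843) or 6 (674). Same-numbered sheep did not deviate together on average (mean r -0.15, from -0.627 to 0.705, 2 of 8 pairs above 0.1, 1 of 8 correlating best with its own number). The number was not used as a pairing in the reported fits, though these values cannot exclude one. With the replicate block, INHBA was called (log2 fold change 1.23, adjusted p = 0.059 by limma), and the sign-flip test over same-numbered sheep gave an exact permutation p of 0.016. With diet means removed, r with testis weight was -0.42, with tubule diameter -0.060 and with epithelium volume -0.29. Without high diet sheep 5 and 8 these were -0.59, -0.46 and -0.53, past the threshold no longer. By rho, sperm number was at -0.55. Leaving out 1 sheep gave r of -0.85 to -0.63 for testis weight, -0.67 to -0.49 for tubule diameter, -0.76 to -0.59 for epithelium volume and -0.67 to -0.32 for sperm number. The relation with tubule diameter passed an adjusted p under 0.05 in 4 of 16 of these. INHBA relative to INHBB was not run, since INHBB could not be matched to an identifier.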
